A study of Mus musculus with 16 samples.

Results

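Transcripts of 10 negative regulators of SMAD signalling were measured by RNA sequencing in mouse lung endothelial cells (MLECs): the inhibitory SMADs *Smad6* and *Smad7*, the membrane inhibitors *Pmepa1* and *Bambi*, the ubiquitin ligases *Smurf1*, *Smurf2* and *Trim62*, and the nuclear co-repressors *Ski*, *Skil* and *Tgif1*. They were picked by gene symbol as known inhibitors of the pathway, with earlier results of these data known. They make up 10 of the 55414 genes of the count table. All 10 had enough counts to be among the 15693 genes tested. MLECs were isolated in 4 separate preparations from *Eng* fl/fl mice that carry *Rosa26*-*Cre*ERT2 and the Immorto transgene, which lets the cells grow in culture and is present in every group, as is the Cre. The recombinase is expressed from the ubiquitous *Rosa26* locus and becomes active in the nucleus with 4-OH-tamoxifen. KO cells received 4-OH-tamoxifen and Ctrl cells (WT in the labels) received vehicle, so that effects of *Eng* deletion and of 4-OH-tamoxifen cannot be told apart. Cultures had been grown with interferon-γ at 20 U/ml and with 1 μM SB431542, an inhibitor of the activin and TGF-β type I receptors. Per the study's methods, cells for signalling assays were then seeded without either of these and without 4-OH-tamoxifen. All cells were serum-starved before treatment. Each isolation gave Ctrl cells with PBS, Ctrl cells with BMP9 bound to monomeric soluble endoglin, itself in large excess (sENG(M):BMP9), KO cells with PBS and KO cells with BMP9 bound to its prodomain (pro:BMP9), which makes 4 groups of 4 libraries. Both ligands were used at 0.2 ng/ml of growth factor domain for 90 min. Genotype and ligand form therefore also cannot be told apart in ligand-treated cells. The age and sex of the mice are not given in the sources used here.

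BMP9 binds the type I receptor ALK1 on endothelial cells, with endoglin as co-receptor, and the activated receptor phosphorylates SMAD1 and SMAD5, which enter the nucleus with SMAD4. The inhibitors are known from successive steps of SMAD signalling, in the BMP or the TGF-β branch. BAMBI is a pseudoreceptor without a kinase, SMAD6 and SMAD7 compete at the receptors and recruit SMURF ubiquitin ligases to them, PMEPA1 holds receptor-regulated SMADs away from the receptor, and SKI, SKIL and TGIF1 repress transcription by the SMAD complex in the nucleus. Several of these genes are themselves transcribed in response to SMADs, which forms negative feedback loops.

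The start regions of 4 of the regulators are shown. *Smad6* and *Smurf2* are the regulators with an entry whose levels followed each other most closely across libraries. *Trim62* was lower in KO cells with ligand, by a call that depends on the libraries used. *Smurf1* is the paralogue of *Smurf2* and moved least. The sequences are the 250 bases before the RefSeq transcription start on GRCm38.p6, read 5′ to 3′ on the strand of the gene: chr9:64022060-64022309 on the minus strand for *Smad6*, chr11:106920716-106920965 on the minus strand for *Smurf2*, chr4:128883794-128884043 on the plus strand for *Trim62* and chr5:144965831-144966080 on the minus strand for *Smurf1*. Capitals mark matches to short motifs known to be read by SMAD complexes. The matches were found by sequence alone, and binding was not measured. The motifs are the palindrome GGCGCC, the related motif GGAGCC and the SMAD box CAGAC. On the other strand GGAGCC appears as GGCTCC and CAGAC as GTCTG. No matches overlap in the printed sequences.

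Smad6: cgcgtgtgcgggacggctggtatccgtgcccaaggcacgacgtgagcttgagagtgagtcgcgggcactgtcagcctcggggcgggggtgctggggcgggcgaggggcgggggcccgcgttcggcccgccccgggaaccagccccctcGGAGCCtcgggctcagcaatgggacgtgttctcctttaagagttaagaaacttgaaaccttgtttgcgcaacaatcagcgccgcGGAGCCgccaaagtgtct
Smurf2: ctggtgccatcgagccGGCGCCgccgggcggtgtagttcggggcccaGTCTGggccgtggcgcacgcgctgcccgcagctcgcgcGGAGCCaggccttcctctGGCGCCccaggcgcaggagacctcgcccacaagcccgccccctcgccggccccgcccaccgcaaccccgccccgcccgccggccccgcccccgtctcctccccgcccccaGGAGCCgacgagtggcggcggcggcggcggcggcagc
Trim62: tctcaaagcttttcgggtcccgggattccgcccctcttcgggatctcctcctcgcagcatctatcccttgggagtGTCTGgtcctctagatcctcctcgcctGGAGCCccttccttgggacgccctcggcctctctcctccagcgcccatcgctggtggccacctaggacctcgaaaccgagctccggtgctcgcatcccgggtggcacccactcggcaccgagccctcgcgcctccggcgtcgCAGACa
Smurf1: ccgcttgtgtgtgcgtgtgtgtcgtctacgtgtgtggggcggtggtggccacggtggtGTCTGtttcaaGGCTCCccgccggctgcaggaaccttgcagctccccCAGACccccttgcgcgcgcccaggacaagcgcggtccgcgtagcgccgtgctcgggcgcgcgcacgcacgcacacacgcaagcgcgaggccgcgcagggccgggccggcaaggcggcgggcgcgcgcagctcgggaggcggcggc

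GGAGCC was found in a start region of all 6 regulators that have an entry in the RefSeq table used here (*Smad6*, *Smurf1*, *Smurf2*, *Trim62*, *Ski* and *Tgif1*), compared with 26.0% of 32851 start regions of the same length. *Tgif1* has 5 annotated starts, and its match lies in 1 of them. GGCGCC was found in *Smurf2* and *Ski*, compared with 9.6% of all start regions, and CAGAC in 4 of the 6 genes, compared with 42.2%. These percentages count single start regions, not genes. Counted alike, 6 of the 10 start regions of these genes hold GGAGCC, 2 hold GGCGCC and 6 hold CAGAC. *Smurf2* holds GGCGCC at 234 and 147 bases and GGAGCC at 165 and 37 bases before its start, and *Smad6* holds GGAGCC at 102 and 18 bases before its start. *Smurf1*, which responded least, also holds GGAGCC and CAGAC. The GC content of the 4 printed regions lay between 66.4% and 82.0%, compared with a median of 52.4% over all start regions. The RefSeq table used here has no entry under the symbols *Smad7*, *Pmepa1*, *Bambi* and *Skil*.

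Library totals lay between 14869115 and 17242117 counts, and levels are given as CPM, the counts scaled to library size, after TMM normalisation (trimmed mean of M-values). *Eng* itself, the deleted gene, was at 8.51% to 14.5% of its Ctrl level in KO cells of the same isolation with PBS, and at 16.7% to 23.3% with ligand. All 8 endothelial markers examined were detected in every group, with summed levels of 2832 to 6491 CPM. Fibroblast markers (5 genes) summed to 68.6 to 637 CPM and mural markers (6 genes) to 30.8 to 223 CPM, both lowest in isolation 2. Leukocyte markers (4 genes) summed to 37.5 to 54.0 CPM, and epithelial markers (4 genes, 1 of them at 0 in every group) to 1.83 to 47.7 CPM.

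The first question was whether the inhibitors respond to BMP9 when endoglin is present. All 10 regulators rose in Ctrl cells after 90 min of sENG(M):BMP9 by the edgeR test (adjusted p under 0.05), whereas 5.86% of all genes tested rose. *Smad6* and *Smad7* rose most, *Pmepa1*, *Trim62*, *Bambi* and *Smurf2* rose by 1.25 to 1.64 on the log2 scale, *Ski* and *Skil* by less than this, and *Smurf1* and *Tgif1* only slightly. The median log2 fold change of the 10 regulators was 1.28, and that of all genes tested was -0.01. In KO cells with pro:BMP9, 8 of the 10 rose, whereas 3.68% of all genes did, and the median of the regulators was 0.89. *Smurf1* and *Tgif1* were the exceptions there. None of the 10 fell in either genotype, whereas 3.83% of all genes fell in Ctrl and 1.92% in KO cells. The plot of CPM by group shows the level of each regulator in all 16 libraries.

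**Figure D1:**
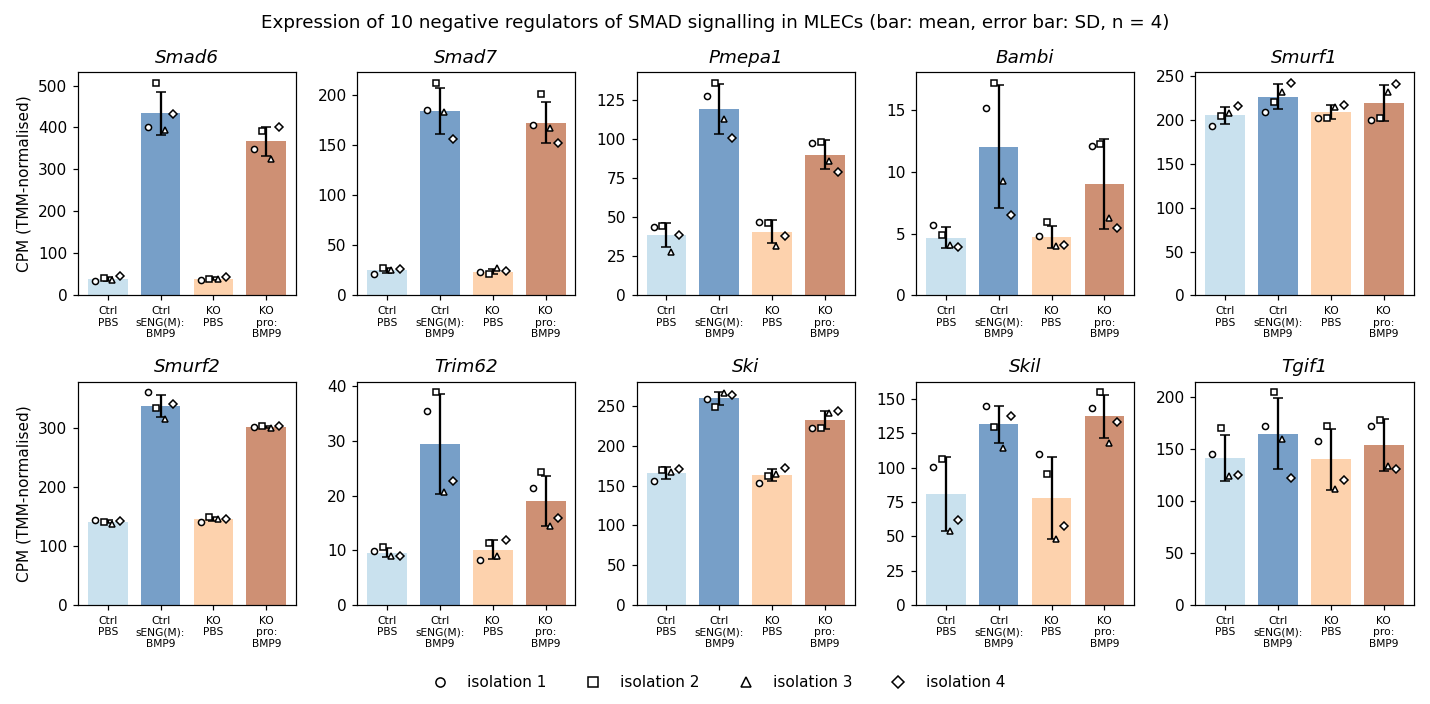
Level of each regulator in CPM (TMM-normalised) in the 4 groups. Bars are means, error bars are SD of 4 isolations and symbols are single isolations; *Smad6* rose from about 40 to over 300 CPM in every isolation, while the groups of *Smurf1* and *Tgif1* overlap.

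*Smad6* (ENSMUSG00000036867, GRCm39 chromosome 9, 63860358 to 63929341, minus strand) encodes the inhibitory SMAD that acts mainly on the BMP branch. Its levels in isolations 1 to 4 were 34.9, 41.0, 36.1 and 46.4 CPM in Ctrl cells with PBS and 402, 507, 393 and 433 CPM with sENG(M):BMP9. KO cells had 36.3, 38.4, 38.7 and 44.9 CPM with PBS and 350, 392, 326 and 400 CPM with pro:BMP9. The PBS and ligand groups did not overlap in either genotype, and the lowest ligand-treated library was far above the highest PBS library. The log2 fold change was 3.45 (standard error, SE, 0.0610, adjusted p = 2.1e-17) in Ctrl cells and 3.21 (SE 0.0607, adjusted p = 7.03e-17) in KO cells. *Smad6* had the lowest p of all 15693 genes in both comparisons, although 6 genes in Ctrl cells and 4 in KO cells had a larger fold change.

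*Smad7* (ENSMUSG00000025880, chromosome 18, 75500600 to 75529006, plus strand) encodes the inhibitory SMAD that acts on both the BMP and the TGF-β branch. It was at 21.4, 27.4, 25.4 and 26.3 CPM in Ctrl cells with PBS and at 185, 212, 183 and 156 CPM with ligand. In KO cells the corresponding levels were 23.2, 20.9, 26.9 and 24.1 CPM with PBS and 169, 201, 167 and 152 CPM with ligand. The groups with and without ligand were again separate, and the ligand-treated groups of both genotypes covered nearly the same range. The log2 fold changes were 2.87 (SE 0.0855, adjusted p = 7.49e-14) in Ctrl cells and 2.85 (SE 0.0861, adjusted p = 1.43e-13) in KO cells. The rise of *Smad6* exceeded that of *Smad7*, as the ratio of *Smad6* to *Smad7* CPM per kilobase of gene length went from 2.22 ± 0.21 to 3.34 ± 0.41 in Ctrl cells and from 2.36 ± 0.30 to 3.03 ± 0.46 in KO cells (SD, n = 4), with no overlap of ranges in either genotype.

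Among the ubiquitin ligases, *Smurf2* responded and its paralogue *Smurf1* hardly did. Both encode HECT-type ligases that SMAD7 brings to the receptors. *Smurf2* (ENSMUSG00000018363, chromosome 11, 106710892 to 106811541, minus strand) was at 144, 142, 137 and 143 CPM in Ctrl cells with PBS and at 361, 333, 315 and 341 CPM with sENG(M):BMP9. In KO cells it was at 142, 149, 146 and 147 CPM with PBS and at 302, 304, 299 and 303 CPM with pro:BMP9. The isolations were close, as the highest exceeded the lowest by a factor of 1.01 in KO cells with ligand, the smallest of the 10 genes, and of 1.14 in Ctrl cells with ligand. The log2 fold change was 1.25 (SE 0.0367, adjusted p = 7.49e-14) in Ctrl cells and 1.05 (SE 0.0367, adjusted p = 8.88e-13) in KO cells, the second and the fourth lowest p of all genes.

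*Smurf1* (ENSMUSG00000038780, chromosome 5, 144813305 to 144902657, minus strand) was between 193 and 217 CPM in Ctrl cells with PBS and between 210 and 243 CPM with ligand, and between 202 and 218 CPM in KO cells with PBS and 201 and 242 CPM with ligand. These groups overlap. Within each isolation it was higher with ligand in 4 of 4 Ctrl pairs, by 0.11 to 0.16 on the log2 scale (log2 fold change 0.14, SE 0.0356, adjusted p = 0.0149), and in KO cells the log2 fold change was 0.06 with a 95% interval of -0.01 to 0.14 (adjusted p = 0.469). The Ctrl call was lost when isolation 1, 3 or 4 was left out (adjusted p = 0.0777, 0.0873 and 0.0631). The ratio of *Smurf2* to *Smurf1* CPM per kilobase went from 0.709 ± 0.042 to 1.54 ± 0.17 in Ctrl cells and from 0.717 ± 0.030 to 1.43 ± 0.14 in KO cells (SD, n = 4), so that *Smurf2* overtook *Smurf1* in all 4 isolations of both genotypes.

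*Trim62* (ENSMUSG00000041000, chromosome 4, 128777373 to 128805121, plus strand), a RING-type ubiquitin ligase reported to act on SMAD3, was low with PBS, at 9.88, 10.6, 8.88 and 9.002 CPM in Ctrl and 8.31, 11.3, 9.02 and 11.9 CPM in KO cells. With ligand it was at 35.4, 38.9, 20.7 and 22.6 CPM in Ctrl and 21.5, 24.3, 14.4 and 15.96 CPM in KO cells. All ligand-treated libraries were above all PBS libraries of their genotype, and isolations 1 and 2 were higher than isolations 3 and 4 after ligand. The log2 fold changes were 1.58 (SE 0.135, adjusted p = 1.35e-07) and 0.88 (SE 0.139, adjusted p = 3.65e-04).

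The membrane inhibitors rose at different levels of expression. *Pmepa1* (ENSMUSG00000038400, chromosome 2, 173066251 to 173118326, minus strand) went from 43.7, 44.2, 27.5 and 38.5 CPM to 128, 136, 113 and 101 CPM in Ctrl cells, and from 47.0, 46.1, 31.7 and 38.2 CPM to 97.6, 98.4, 85.8 and 78.8 CPM in KO cells. Every ligand-treated library was above every PBS library, and every ligand-treated KO library was below every ligand-treated Ctrl library. The log2 fold changes were 1.64 (SE 0.0772, adjusted p = 4.27e-11) in Ctrl and 1.15 (SE 0.0775, adjusted p = 1.12e-08) in KO cells.

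*Bambi* (ENSMUSG00000024232, chromosome 18, 3507923 to 3516404, plus strand) was the lowest expressed of the 10 genes, with 65 counts in its lowest library. It was at 5.72, 4.93, 4.08 and 3.93 CPM with PBS and at 15.2, 17.2, 9.25 and 6.53 CPM with ligand in Ctrl cells, and at 4.82, 5.95, 4.03 and 4.07 CPM with PBS and 12.1, 12.3, 6.29 and 5.43 CPM with ligand in KO cells. The KO groups overlap, since isolation 4 with ligand was below isolation 2 with PBS, but within isolations *Bambi* was higher with ligand in 4 of 4 pairs of each genotype. The log2 fold change was 1.32 (SE 0.149, adjusted p = 4.55e-06) in Ctrl and 0.89 (SE 0.154, adjusted p = 8.55e-04) in KO cells.

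The response of *Bambi* in single isolations ran from 0.72 to 1.78 in Ctrl cells and from 0.41 to 1.30 in KO cells on the log2 scale, and that of *Trim62* from 1.21 to 1.86 and from 0.42 to 1.36. For both genes, isolations 1 and 2 gave the larger values in both genotypes. The summed endothelial markers were also higher in these isolations, at 4865 and 6461 CPM in isolations 1 and 2 and 2832 and 4246 CPM in isolations 3 and 4 (Ctrl, PBS), and their part in the result was not tested. *Skil* had the opposite order, as described next.

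The nuclear co-repressors had fitted responses under 1 on the log2 scale. *Ski* (ENSMUSG00000029050, chromosome 4, 155238532 to 155307049, minus strand), which binds SMADs and recruits histone deacetylase complexes, went from 155, 170, 167 and 171 CPM to 259, 249, 266 and 264 CPM in Ctrl cells and from 154, 162, 165 and 173 CPM to 223, 222, 241 and 244 CPM in KO cells. The groups were separate in both genotypes. The log2 fold change of 0.65 (SE 0.0354, adjusted p = 3.46e-10) in Ctrl and 0.51 (SE 0.0355, adjusted p = 1.77e-08) in KO cells was modest in size and close in all isolations, at 0.55 to 0.74 and 0.45 to 0.55.

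*Skil* (ENSMUSG00000027660, chromosome 3, 31149207 to 31176726, plus strand), the paralogue also called SnoN, depended on the isolation. With PBS it was at 101, 106, 53.9 and 62.0 CPM in Ctrl and 110, 95.4, 48.4 and 57.4 CPM in KO cells, and with ligand at 145, 130, 114 and 137 CPM and 143, 155, 118 and 133 CPM. Isolations 1 and 2 started higher, and all isolations ended within a narrower range. The log2 responses were thus 0.52, 0.28, 1.08 and 1.15 in Ctrl and 0.38, 0.70, 1.28 and 1.21 in KO cells, with fitted values of 0.76 (SE 0.130, adjusted p = 4.66e-04) and 0.87 (SE 0.130, adjusted p = 1.93e-04). *Skil* was the only regulator with a larger fitted response in KO than in Ctrl cells, and that difference of 0.12 had a 95% interval of -0.27 to 0.50.

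*Tgif1* (ENSMUSG00000047407, chromosome 17, 71151200 to 71160541, minus strand), a homeodomain co-repressor, was at 124 to 170 CPM with PBS and 122 to 204 CPM with ligand in Ctrl cells, and at 111 to 172 and 131 to 178 CPM in KO cells. The groups overlap widely. The log2 fold change was 0.21 (SE 0.0609, adjusted p = 0.0303) in Ctrl cells, where isolation 4 was at -0.04 and the other isolations at 0.24 to 0.37, and 0.14 in KO cells (95% interval 0.01 to 0.27, adjusted p = 0.287). The Ctrl call was lost without isolation 1, 2 or 3 (adjusted p = 0.150, 0.189 and 0.138).

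**Figure D2:**
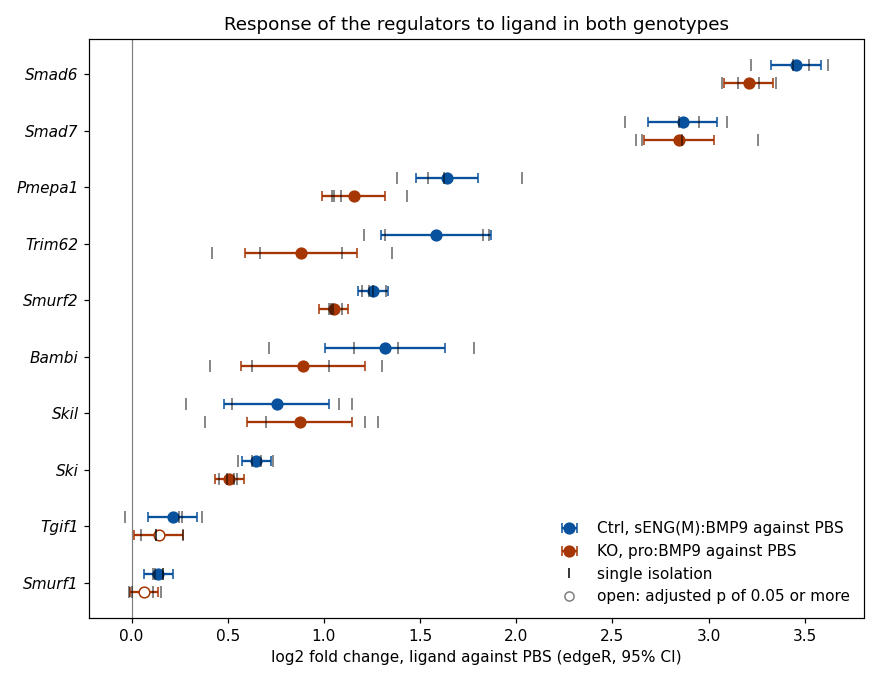
Log2 fold change of each regulator, ligand against PBS, in Ctrl cells (blue) and KO cells (orange). Points are edgeR estimates with 95% intervals, open where the adjusted p is 0.05 or more, and ticks are single isolations. *Smad6* and *Smad7* stand near 3, and *Smurf1* and *Tgif1* near 0.

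Counted by complete separation of CPM, 8 regulators were higher in all 4 ligand-treated Ctrl libraries than in all 4 PBS libraries, whereas 2.51% of all genes were. In KO cells 7 regulators were, compared with 1.82% of all genes. *Smurf1* and *Tgif1* overlapped in both genotypes and *Bambi* in KO cells only. When the isolation was left out of the model, 6 regulators passed in Ctrl cells and 5 in KO cells. The calls lost were those of *Bambi*, *Smurf1*, *Skil* and *Tgif1* in Ctrl cells (adjusted p = 0.0629, 0.984, 0.446 and 1.00) and of *Bambi*, *Trim62* and *Skil* in KO cells (adjusted p = 0.588, 0.123 and 0.423).

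The makeup of the inhibitor pool changed with ligand, as read from levels per kilobase of gene length. The divisor was the deposited gene length, which need not be the length of the transcripts expressed. The order of genes and their shares depend on it. With PBS the most abundant transcripts in Ctrl cells were *Smurf1* (32.4 CPM per kilobase), *Ski* (29.8), *Tgif1* (25.1) and *Smurf2* (23.0), then *Smad6* (12.4), *Skil* (8.33), *Pmepa1* (7.83), *Smad7* (5.56), *Trim62* (1.91) and *Bambi* (0.919 CPM per kilobase). *Smurf1*, *Ski*, *Tgif1* and *Smurf2* had neighbouring ranges that overlap, as did *Smad6*, *Skil*, *Pmepa1* and *Smad7*, whereas the steps from *Smurf2* to *Smad6*, from *Smad7* to *Trim62* and from *Trim62* to *Bambi* did not. After sENG(M):BMP9, *Smad6* was first at 135 ± 16.2 CPM per kilobase (SD, n = 4), followed by *Smurf2* at 54.8, *Ski* at 46.7, *Smad7* at 40.7 and *Smurf1* at 35.8 CPM per kilobase. *Smad6* exceeded *Smurf2* by a factor of 2.14 to 2.92 in single isolations, and the ranges of *Ski*, *Smad7*, *Smurf1*, *Tgif1* and *Pmepa1* overlap between neighbours. KO cells with pro:BMP9 had the same first 5 genes in the same order, with *Smad6* at 115 CPM per kilobase.

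Summed over the 10 genes, the level rose from 147 ± 8.37 to 389 ± 27.0 CPM per kilobase in Ctrl cells and from 148 ± 6.85 to 343 ± 15.98 in KO cells (SD, n = 4). This was a rise of 2.64 ± 0.077 fold in Ctrl and 2.32 ± 0.049 fold in KO cells. *Smad6* alone made up 50.9 ± 3.3% of the rise in Ctrl cells and 52.2 ± 3.0% in KO cells, *Smad7* 14.5 ± 1.2% and 16.8 ± 2.1%, and *Smurf2* 13.2 ± 1.4% and 12.99 ± 0.78%. The share of inhibitory SMADs in the sum went from 12.2 ± 1.2% to 45.2 ± 2.1% in Ctrl and from 11.9 ± 1.3% to 44.4 ± 1.7% in KO cells. The share of nuclear co-repressors went from 42.9 ± 2.3% to 23.1 ± 0.96% in Ctrl cells, and that of ubiquitin ligases from 39.0 ± 2.2% to 24.9 ± 1.6%, although the mean level of no member of either class was lower with ligand. These sums are of transcripts and give no measure of protein.

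**Figure D3:**
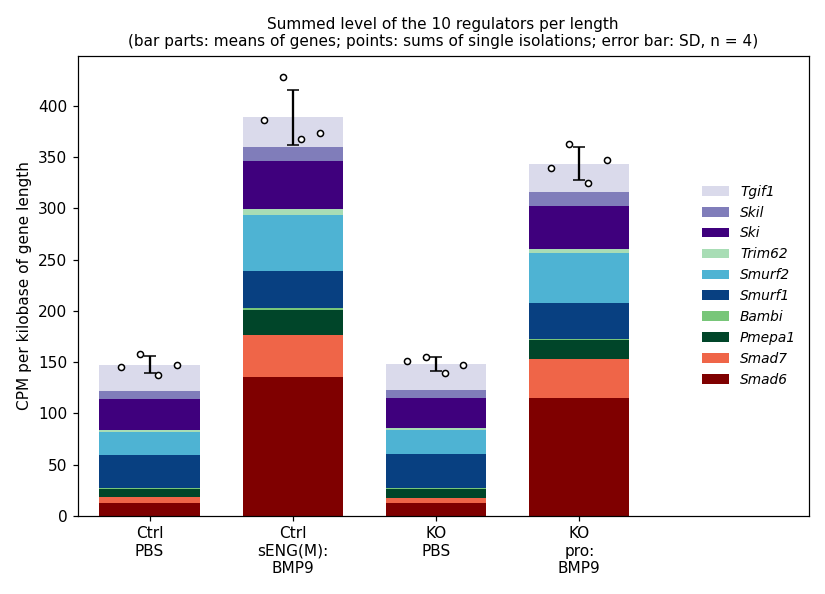
Summed level of the 10 regulators in CPM per kilobase of gene length in the 4 groups. Bar parts are mean levels of single genes, points are the sums of single isolations and error bars their SD (n = 4); the sum rises from near 147 to 389 in Ctrl and to 343 in KO cells, with *Smad6* (dark red) as the largest part after ligand.

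The second question was whether the inhibitors differ between Ctrl and KO cells. With PBS, none of the 10 regulators passed the edgeR test, none had an unadjusted p under 0.05 (6.82% of all genes did), and DESeq2 called none either, whereas 0.0191% of all genes were called. The log2 fold changes, KO against Ctrl, lay between -0.08 for *Smad7* and 0.09 for *Trim62*. The intervals differ much in width. *Smurf1*, *Smurf2* and *Ski* had 95% intervals within -0.10 to 0.12, whereas those of *Bambi* (-0.34 to 0.37) and *Trim62* (-0.23 to 0.40) leave room for larger differences. The summed level in KO cells was 98.1% to 104% of that in Ctrl cells of the same isolation.

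With ligand, *Pmepa1* and *Trim62* were lower in KO cells, and no regulator was higher. For genes in general, 0.166% were lower and 0.0892% higher. *Pmepa1* was at 76.6%, 72.2%, 76.1% and 78.3% of its Ctrl level in isolations 1 to 4, a log2 fold change of -0.40 (SE 0.0724, adjusted p = 0.0234). *Trim62* was at 60.6%, 62.4%, 69.6% and 70.7%, a log2 fold change of -0.62 (SE 0.126, adjusted p = 0.0470). Both were lower in 4 of 4 isolations. Both calls depend on the libraries used: leaving out isolation 1 or 2 raised the adjusted p of *Pmepa1* to 0.191 or 0.155, and leaving out isolation 1, 2 or 3 raised that of *Trim62* to 0.187, 0.177 or 0.108. Neither passed without the isolation in the model (adjusted p = 1.00 for both), and *Trim62* did not pass with at least 10 counts required in every library (adjusted p = 0.0580).

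The other regulators did not pass. Of all 10, 6 had an unadjusted p under 0.05 by edgeR, compared with 9.27% of all genes. A lower level in KO than in Ctrl cells of every isolation was found for 8 of the 10, compared with 7.35% of all genes. The regulators vary together across libraries, so these counts are not independent. Among 10 tested SMAD1/5 targets, 1 passed as lower and 0 as higher. Their median log2 fold change was -0.03, compared with -0.16 for the regulators. *Smad6* was at 77.4% to 92.4% of its Ctrl level (log2 fold change -0.24, adjusted p = 0.0586). *Smurf2* was at 83.7% to 94.9% (-0.16, adjusted p = 0.0602) and *Ski* at 86.1% to 92.2% (-0.16, adjusted p = 0.0573). *Bambi* was at 68.1% to 83.2%, with a wider error (-0.41, SE 0.137, adjusted p = 0.247). *Smad6*, *Smurf2* and *Ski* lie just above the threshold, and all 3 passed with DESeq2 (adjusted p = 0.00670, 0.0165 and 0.0186). *Smad7* was at 91.0% to 97.3% (log2 fold change -0.09, 95% interval -0.25 to 0.06) and *Skil* at 97.0% to 120% (0.06, 95% interval -0.21 to 0.32). By complete separation of CPM, *Pmepa1*, *Smurf2* and *Ski* were lower in every KO library than in every Ctrl library with ligand, whereas 0.408% of all genes were. The summed level in KO cells was 84.9% to 93.0% of that in Ctrl cells.

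Summed levels of markers of other cells also differed between these groups. With ligand, 1 of 5 fibroblast and 1 of 6 mural markers passed the edgeR test, both lower in KO cells, compared with 0.166% of all genes. With PBS, 1 of 5 and 0 of 6 were lower, compared with 0.0191%. Each fibroblast marker was lower in every isolation with ligand, whereas the mural markers that did not pass differed in sign between isolations. With ligand, fibroblast markers summed to 565, 77.2, 632 and 534 CPM in Ctrl and 508, 68.6, 541 and 335 CPM in KO cells of isolations 1 to 4, and mural markers to 223, 37.7, 184 and 108 CPM and 117, 30.8, 168 and 80.6 CPM. In every isolation both sums were lower in KO cells. With PBS both sums were lower in KO cells as well, at 563, 73.7, 637 and 528 CPM in Ctrl and 474, 71.2, 559 and 348 CPM in KO cells for fibroblast markers and at 217, 33.8, 164 and 96.1 CPM and 120, 32.3, 150 and 81.0 CPM for mural markers. Both sums were lowest in isolation 2, in which the log2 difference with ligand was -0.47 for *Pmepa1* and -0.68 for *Trim62*. The part of these cells in the result was not tested. In bulk RNA, fewer cells of a type and less RNA per cell cannot be told apart.

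**Figure D4:**
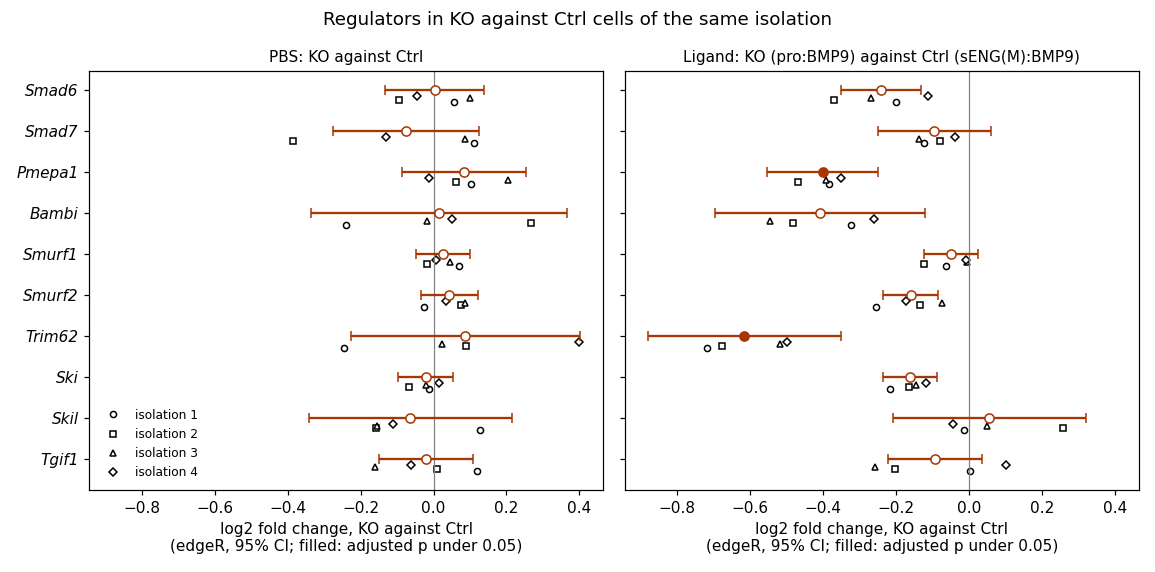
Log2 fold change of each regulator, KO against Ctrl, with PBS (left) and with ligand (right). Orange points are edgeR estimates with 95% intervals, filled where the adjusted p is under 0.05, and black symbols are single isolations. With PBS the values scatter around 0, and with ligand *Pmepa1* and *Trim62* lie at -0.40 and -0.62.

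The third question was whether the response to pro:BMP9 in KO cells differed from that to sENG(M):BMP9 in Ctrl cells, which is the difference of both fold changes. Genotype and ligand form cannot be told apart in this difference either. By edgeR none of the 10 regulators passed, nor did any other gene (0% of 15693), and DESeq2 called none of them. Without a filter on low counts *Pmepa1* (adjusted p = 1.77e-06) and *Trim62* (adjusted p = 1.62e-04) passed by edgeR, with 25 lower and 27 higher genes in all. Each passed in only 1 of 9 alternatives, and the fitted differences hardly changed there (-0.48 and -0.70). The unadjusted p was under 0.05 for 5 regulators, namely *Smad6*, *Pmepa1*, *Smurf2*, *Trim62* and *Ski*, and for 3.6% of all genes. The response of *Pmepa1* was lower in KO cells by 0.34 to 0.60 on the log2 scale in single isolations (fitted difference -0.49, SE 0.109, adjusted p = 0.937), the fourth lowest p of all genes. *Trim62* differed by -0.70 (95% interval -1.11 to -0.29), *Smurf2* by -0.20 (-0.31 to -0.10), *Smad6* by -0.24 (-0.42 to -0.07) and *Ski* by -0.14 (-0.25 to -0.03). *Bambi* differed by -0.42 (95% interval -0.88 to 0.03). *Smad7* was the regulator with the closest responses, with a difference of -0.02 (95% interval -0.27 to 0.23). The median difference over the 10 regulators was -0.17, and over all genes 0.00.

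The regulators were then set beside other genes of the pathway, by the average of the responses of both genotypes, in which all 10 regulators and 7.46% of all genes rose. Of 10 tested SMAD1/5 targets, 9 rose, with *Atoh8* (3.63), *Hey1* (3.18), *Id2* (2.61) and *Id1* (2.53) ahead on the log2 scale, and *Msx1* did not pass. *Smad6* at 3.33 and *Smad7* at 2.86 lie within this range. Among 11 receptors, 6 rose, led by *Eng* (0.86), *Bmpr2* (0.58), *Acvr1* (0.44) and *Acvrl1* (0.19), which encodes ALK1. In KO cells the *Eng* transcript is that left after deletion. Of 6 SMAD transducers, 3 rose and 2 fell. *Smad9*, which encodes SMAD8, rose by 2.10 from a low level (1.77 CPM in Ctrl cells with PBS), *Smad5* rose by 0.14, and *Smad1* and *Smad2* fell by 0.12 and 0.11.

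Other intracellular inhibitors of the pathway did not follow the 10 regulators. Both sets of genes were chosen with earlier results of these data known, so the contrast between them is a description only. Of 14 tested, none rose and 4 fell, where 5.65% of all genes fell. *Pdp1*, a pyruvate dehydrogenase phosphatase that has been reported to act on SMAD1, fell by 0.77 on the log2 scale, from 30.5 ± 2.26 to 16.4 ± 1.49 CPM in Ctrl cells and from 29.4 ± 3.68 to 18.8 ± 2.09 CPM in KO cells (SD, n = 4). *Tob1*, an antiproliferative protein that binds SMADs, fell by 0.27, *Zeb2*, a SMAD-binding repressor, by 0.19 and *Wwp1*, a HECT-type ligase related to the SMURFs, by 0.14. *Nedd4l*, *Itch*, *Ppm1a* and *Tgif2* were among the 10 that did not pass. No gene passed among the 6 factors that act against the inhibitors, such as *Rnf111*, the ligase that degrades SMAD7 and SKIL, and *Usp15* and *Usp4*, which remove ubiquitin from receptors or SMADs. In each genotype taken alone, the counts of other inhibitors were 0 higher and 4 lower (Ctrl) and 0 higher and 3 lower (KO), and *Zeb2* was the one that did not pass in KO cells.

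**Figure D5:**
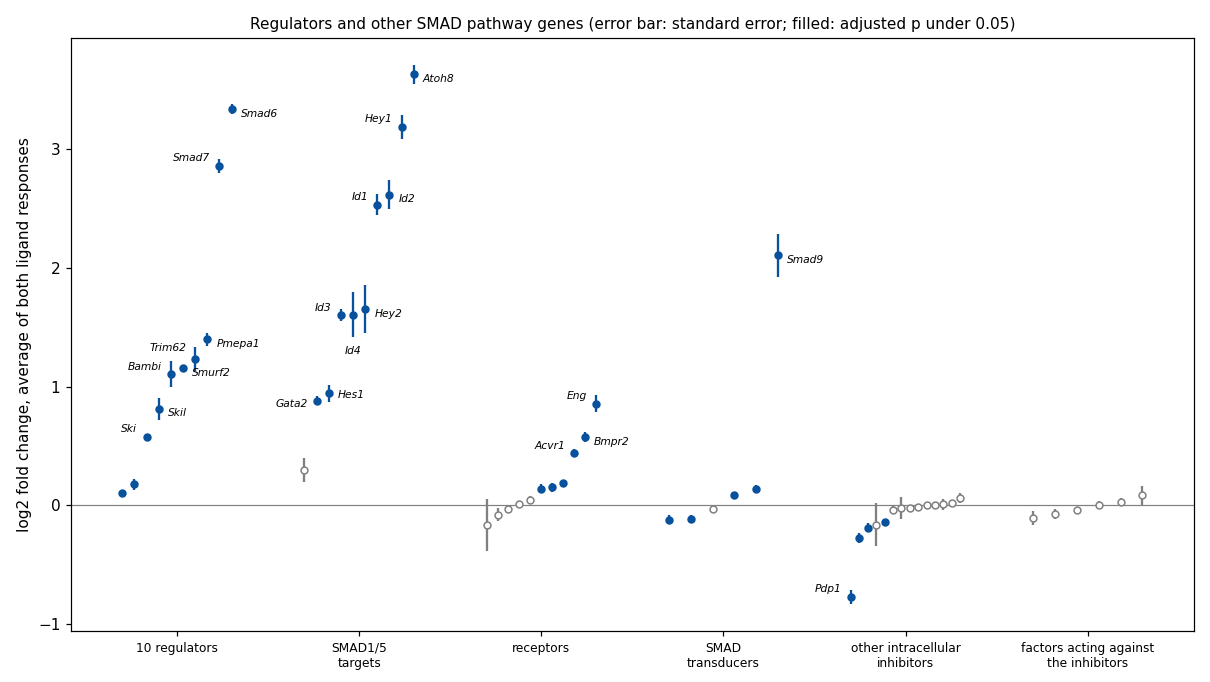
Log2 fold change for the average of both ligand responses of the 10 regulators and of 5 lists of other pathway genes. Points are single genes with standard errors, filled where the adjusted p is under 0.05. The regulators reach the range of the SMAD1/5 targets, while the other intracellular inhibitors lie near or below 0.

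The pattern over all 16 libraries was compared by Pearson correlation of log2 CPM after the mean of each isolation was removed. These values describe likeness only, since every induced gene shares the step between PBS and ligand. The gene most like *Smad6* was *Smad7* (r = 0.998), followed by *Sox18* (0.996), a SoxF transcription factor of endothelium, and *Smurf2* (0.996). *Smurf2* was most like *Smad6*, *Foxc2* (0.995) and *Sox18* (0.993), and *Smad7* was like *Snai1* (0.995) after *Smad6*. *Pmepa1* was most like *Mdfi* (0.994) and *Zcchc14* (0.993), and *Ski* was like *Mdfi* (0.991) and *Foxc2* (0.990). *Bambi* was most like *Nog* (0.989), which encodes the BMP antagonist Noggin, *Tmem64* (0.989) and *Sh2b2* (0.986), and *Trim62* was most like *Bambi* (0.982), with *Tmem64* (0.981) and *Sh2b2* (0.981) next. *Skil* had *Csrnp1* (0.970), *Sik1* (0.966) and *Hoxb2* (0.963). Between regulators the lowest r was that of *Skil* and *Tgif1*, at 0.644.

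Some of these genes overlap neighbours by their spans from start to end, and overlap of exons was not examined. In a GENCODE annotation of GRCm39, *Smurf2* overlaps the protein-coding gene *Cep95* on the opposite strand and a miRNA on the same strand. *Pmepa1* overlaps a lncRNA on the same strand, *Bambi* and *Skil* a lncRNA on the opposite strand, and *Smurf1* and *Tgif1* non-coding genes on both strands. The libraries were stranded, but the strand setting of the counting is not given in the sources used here. Reads in any shared exons may thus have been split or dropped. *Smad6*, *Smad7*, *Trim62* and *Ski* overlap no other gene there.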

How the data were processed

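The values are raw read counts per gene, which the authors deposited in 1 table for 16 libraries with gene symbols, GRCm39 coordinates and gene lengths. According to the submitters' processing notes, HISAT2 2.0.5 and featureCounts 1.5.0-p3 were used. Per the labels mRNA was selected with poly-T beads for stranded libraries, and the study's methods name paired-end reads. The later quantile normalisation, batch correction and DESeq2 steps of the authors are not in these counts. Libraries were grouped by their labels and none was left out. No row lacked a gene symbol.

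Counts were tested in R 4.3.3 with edgeR 4.0.16 (quasi-likelihood, TMM) in 1 fit of all 16 libraries, after filterByExpr by group (minimum count 10, minimum total 15), which left 15693 genes. The isolation was a block: the replicate number follows the isolation in the library names, and deviations from the group means correlated at 0.670 or more in all 24 pairs of libraries with the same number, and at no more than 0.324 in the 72 pairs with different numbers. All libraries of a group differed by more than sampling noise. Benjamini-Hochberg adjustment was over all genes tested, with a threshold of 0.05, and all tests are two-sided. CPM carry no prior count, a prior count of 2 was added for log2 values per isolation, and CPM per kilobase divide by the deposited gene length.

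Named genes are the 10 regulators, *Eng*, up to 4 genes of each pathway list with the largest average response among those that passed, and the 3 genes most like each regulator that passed in both ligand comparisons, of which 1 gene is not reported here. Genes of the lists that are named as not passing were chosen after their values were seen. The regulators, gene lists and markers were chosen with earlier results of these data known. Start regions were matched by symbol to a RefSeq table of GRCm38.p6, and exon and overlap information to a GENCODE annotation of GRCm39, in which 61.2% of the matched genes have the deposited start and end. The procedure was tested on simulated data. Alternatives were RLE size factors, DESeq2 1.42.0 (isolation kept in the model), a model that omits the isolation, no filter, at least 10 counts in every library, only the 8 libraries of a comparison, and each isolation left out.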

Additional observations from a re-analysis of the deposited data

Results flagged for a closer look

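Each of 60 sets of 4 single-isolation values was screened for 1 isolation that stands far from the other 3 by Dixon's criterion. For the 10 regulators, the sets were the CPM in each of the 4 groups and the log2 response to ligand in each genotype. Differences between genotypes were not screened. Chance alone would mark about 1 set in 20. A single value was marked. The log2 response of *Pmepa1* to pro:BMP9 in KO cells was 1.43 in isolation 3, whereas it was 1.05, 1.09 and 1.04 in isolations 1, 2 and 4. Isolation 3 also had the lowest *Pmepa1* level with PBS in both genotypes (27.5 CPM in Ctrl and 31.7 CPM in KO cells) and the largest response in Ctrl cells (2.03).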

How the results depend on the processing

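The ligand responses of all 10 regulators kept their direction under the 10 alternatives, and *Smad6*, *Smad7*, *Pmepa1*, *Smurf2* and *Ski* passed in both genotypes under each of the 10 alternatives. Without the replicate block, the number of regulators that rose dropped from 10 to 6 in Ctrl cells and from 8 to 5 in KO cells. With single isolations left out it was 8 to 9 in Ctrl cells and 8 in KO cells. *Tgif1* passed in KO cells when only the 8 libraries of the comparison were fitted (adjusted p = 0.0450).

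The number of regulators lower in KO cells with ligand, 2 in the analysis as reported, was the least stable result: 0 without the replicate block, 5 with DESeq2, 6 without a filter on low counts, 1 with at least 10 counts in every library, and 0 to 3 with single isolations left out. The cause was not tested. Over all genes the number of lower genes went from 26 to 1, 67 and 262 in the first 3 of these. *Smad6* also passed without isolation 4 (adjusted p = 0.00996). For the difference of responses, no filter gave 2 regulators (*Pmepa1*, adjusted p = 1.77e-06, and *Trim62*, adjusted p = 1.62e-04), where the reported analysis and DESeq2 gave 0, and over all genes 25 lower and 27 higher genes where the reported analysis gave 0.

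Signs turned only for log2 values near 0. For KO against Ctrl with PBS, *Smad6* was at -0.0011 without the replicate block. With single isolations left out, *Smad6* ran from -0.029 to 0.035, *Smad7* from -0.13 to 0.017, *Bambi* from -0.070 to 0.10, *Tgif1* from -0.069 to 0.022 and *Trim62* from -0.038 to 0.18. With ligand, *Skil* ran from -0.0072 to 0.095, and the difference of responses of *Smad7* from -0.12 to 0.053. RLE size factors changed no call. *Bambi* and *Trim62*, with the fewest counts, had the widest intervals of the ligand responses.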
